A study of Mus musculus with 42 samples.

Results

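The genes described here encode the chemokines and the chemokine receptors of the mouse. They were taken by symbol, from the genes of the deposited table whose symbol begins with Ccl, Cxcl, Ccr or Cxcr and a number, together with *Cx3cl1*, *Cx3cr1*, *Xcl1*, *Xcr1* and *Ackr1*. The members described are 56 of the 26653 genes in the table, 38 ligands and 18 receptors. No row carried the symbol *Ackr1*. That gene, an atypical receptor that binds chemokines without signaling, stands in the table under its older symbol *Darc*, is not one of the 56 and is described with the other genes outside the name rule.

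Chemokines are small secreted proteins that set up gradients along which leukocytes and other cells migrate, and their receptors are seven-transmembrane proteins that signal through inhibitory G proteins. Inflammatory chemokines such as *Ccl2*, *Ccl3* and *Cxcl1* are induced in fibroblasts, macrophages and endothelium by cytokines and microbial products, in large part through the transcription factor NF-κB. Homeostatic chemokines such as *Cxcl12*, *Cxcl13*, *Ccl19* and *Ccl21a* are made constitutively by stromal cells and place lymphocytes and progenitors within tissues.

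PolyA RNA had been sequenced from 22 wild-type and 20 *Tug1*-/- samples of 6 organs and of mouse embryonic fibroblasts (MEFs, connective tissue cells grown from embryos and used at passage 2). Testes were covered by 4 wild-type against 3 knockout samples and prostate by 3 against 2, and spleen, eyes, heart, liver and MEFs by 3 against 3. All animals were male mice of the strain *Tug1*_tm1.1Vlcg on a C57BL/6J (N3-C57BL/6J, no Neo) background. Wild types carried 2 intact *Tug1* alleles, and in the knockouts a lacZ reporter stood in place of the *Tug1* long noncoding RNA gene on both alleles in every cell of the body, so that no tissue was altered on its own. The age of the animals is not given in the labels, and tissues were whole organs that hold blood and neighboring tissue.

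The deposited table gives 1 value per genotype and tissue, which combines the samples of that group and is read here as FPKM, a level per transcript length and library size. The table has neither counts nor values of single samples. The authors' own test columns were not used. From the values alone no spread between samples, test or depth can be given, so the differences between genotypes have no replicate check here, and every change below is a description of 2 combined values. Changes are given as log2((KO + 0.1)/(WT + 0.1)). On this scale the changes of low values come out too small. A gene passed the filter on low values with a mean of both genotypes of at least 1 FPKM, and it was called when the change was then 2-fold or more, a log2 change of at least 1 in size.

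The targeted gene bore out the labels in the 7 tissues. *Tug1* had 11.2 to 27.7 FPKM in wild-type groups and 0.00753 to 0.402 FPKM in knockout groups. The *lacZ* cassette was at 0.00894 FPKM or less in wild-type groups and at 0.355 to 54.3 FPKM in knockout groups, lowest in liver and highest in testes. Defining markers of the labelled tissue passed the filter in each: 6 of 6 in testes, eyes, heart and MEFs, 5 of 5 in spleen, 4 of 5 in prostate, with *Tgm4* listed at 0, and 4 of 6 in liver, with *Alb* and *Serpina1a* listed at 0. Such zeros in abundant genes can be failed estimates, so a member listed at 0 is not shown to be absent. *Tug1* lies on chromosome 11, as do 14 of the 56 members, but the nearest of these, *Cxcl16*, starts 66.8 Mb away in GENCODE vM21 on GRCm38, the sequence of the mm10 build that the labels name.

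Of the 56 members, 43 passed the filter in at least 1 tissue, and 141 pairs of member and tissue passed. The 13 members that passed nowhere were *Ccl1*, *Ccl21b*, *Ccl26*, *Ccl27b*, *Cxcl3*, *Cxcl5*, *Cxcl11*, *Cxcl15*, *Cxcl17*, *Ccr1l1*, *Ccr8*, *Ccr10* and *Cxcr1*. Among them *Ccl21b* and *Ccl27b* were listed at 0 in all 14 groups. They are near-identical copies of *Ccl21a* and *Ccl27a*, so reads of these copies may have been assigned to the listed gene or dropped, and the levels of *Ccl21a* and *Ccl27a* are uncertain to that extent.

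In wild-type animals, most members were highest in spleen, the organ with the densest traffic of leukocytes. Of the 42 members with at least 1 FPKM in some wild-type group, 24 had their highest value in spleen, 7 in MEFs, 4 in liver, 3 each in testes and heart, 1 in eyes and 0 in prostate. Receptors were the more restricted class, with 13 of 14 such receptors highest in spleen. Since the values of a group sum to between 378014 and 1124500 FPKM, the order was repeated with each value divided by its group's sum, and 38 of the 42 kept their highest tissue. The exceptions were *Ccl11*, *Ccl25*, *Ccr4* and *Cxcl12*, each of which moved to the tissue with its second highest value.

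**Figure D1:**
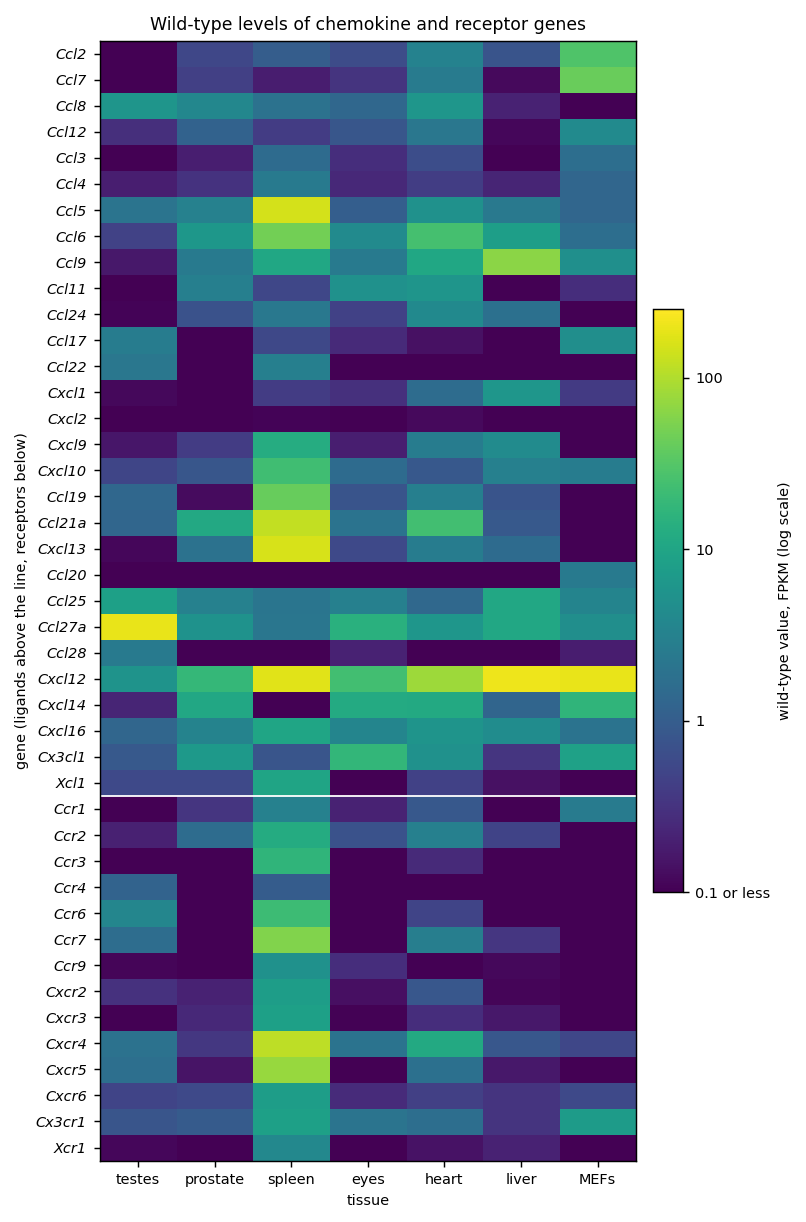
Wild-type FPKM (color, log scale, values of 0.1 or less drawn as 0.1) of the 43 genes that passed the filter in at least 1 tissue, with tissues as columns, ligands above the white line and receptors below it. Receptor rows are brightest in the spleen column, *Cxcl12* is bright in liver, MEFs and spleen, and *Ccl27a* stands out in testes at 194 FPKM.

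The ligands *Cxcl12*, *Cxcl16*, *Ccl25* and *Ccl27a* passed in every tissue. *Cxcl12*, the ligand of *Cxcr4* that retains progenitors and lymphocytes in stroma, was the highest member by the mean of both genotypes in 6 of the 7 tissues, with 203 FPKM in wild-type liver, 193 in MEFs, 176 in spleen, 80.2 in heart, 23.7 in eyes, 18.2 in prostate and 5.58 in testes. In knockouts it had 205 FPKM in liver, 197 in MEFs, 163 in spleen, 71.0 in heart, 28.0 in eyes, 22.7 in prostate and 5.79 in testes. Its log2 change lay between -0.17 in heart and 0.32 in prostate, smaller in size than the largest changes of *Ccl25* (-0.38 in spleen), *Ccl27a* (-0.41 in MEFs) and *Cxcl16* (0.42 in MEFs).

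In testes the order was different, and *Ccl27a*, a ligand of *Ccr10* known for drawing T cells to skin, led with 194 FPKM in wild-type and 175 FPKM in knockout testes. Elsewhere it lay between 2.14 FPKM in wild-type spleen and 14.4 FPKM in wild-type eyes. Its receptor *Ccr10* stayed at 0.0521 FPKM or less in testes. *Ccl27a* overlaps *Il11ra1* on the other strand, which had 4.06 FPKM in wild-type testes, and the library kit does not keep the strand. Likewise *Ccl25* overlaps *Elavl1*, at 6.46 to 15.4 FPKM in the wild-type groups, and *Cxcl16* overlaps *Zmynd15*, at 127 FPKM in wild-type testes, so part of their values may come from those genes.

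Spleen held the ligands that organize lymphoid follicles and T cell zones. *Cxcl13*, the B cell attractant of the follicle, had 157 FPKM in wild-type spleen, and *Ccl21a* and *Ccl19*, which guide T cells and dendritic cells through *Ccr7*, had 123 and 40.6 FPKM. Their receptors were also high there, *Cxcr5* at 75.3 and *Ccr7* at 57.6 FPKM, beside *Cxcr4* at 115 FPKM. In liver the second highest member was *Ccl9*, a ligand of *Ccr1*, at 63.9 FPKM. *Cx3cl1*, the membrane-bound ligand of the microglial and monocyte receptor *Cx3cr1*, was highest in eyes at 18.0 FPKM.

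Between genotypes, 14 of the 141 pairs that passed the filter were called, and in these 14 the level was higher in the knockout. They fell on 12 members, which are ligands, and 9 of the 14 calls were made in MEFs. In MEFs 9 of the 21 members that passed were higher, against 0.319% of the 11587 genes that passed there, and 0 were lower, against 0.328%. In liver 2 of 16 were higher (background 0.82%) and 0 lower (0.581%). In testes 1 of 17 was higher (0.291%) and 0 lower (0.185%), in prostate 1 of 16 higher (0.904%) and 0 lower (0.205%), and in eyes 1 of 15 higher (0.539%) and 0 lower (0.161%). In heart 0 of 25 were higher (0.221%) and 0 lower (0.481%), and in spleen 0 of 31 were higher (1.67%) and 0 lower (0.23%). A call of 1 gene among 15 to 17, or of 2 among 16, carries no comparison with such a background. The MEF count lies furthest from its background, but *Cxcl1* and *Cxcl2* in it passed the filter only through the knockout value. Most of its genes also lie side by side in the genome with others of the count, so they are not separate observations.

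**Figure D2:**
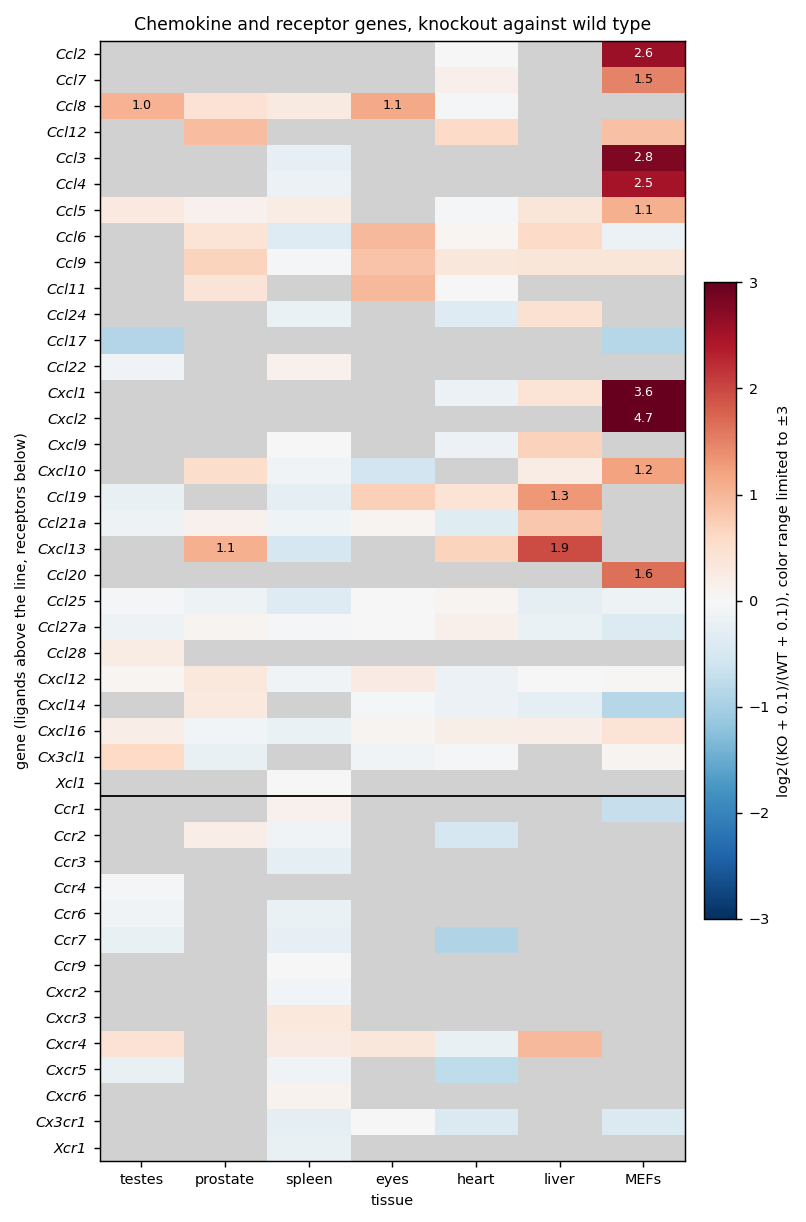
Log2 change between knockout and wild type (color, range limited to 3 in either direction) of the 43 genes that passed the filter in at least 1 tissue, with tissues as columns, ligands above the line and receptors below it. Gray marks a mean under 1 FPKM and numbers mark changes of 2-fold or more. The numbers crowd in the MEF column, where 9 ligands are marked, while the spleen column, with 31 genes measured, has none.

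The MEF ligands that were higher belong to the inflammatory classes. Among the ligands of *Ccr2*, the receptor that brings monocytes out of the blood, *Ccl2* measured 28.8 FPKM in wild-type against 173 FPKM in knockout MEFs, a log2 change of 2.58. *Ccl7* had 41.9 and 118 FPKM, 2.82-fold on the same scale. *Ccl12* had 4.19 and 7.75 FPKM and at 0.87 was not called. *Ccl2* and *Ccl7* were the most abundant of the called ligands, and in the knockout *Ccl2* came within reach of *Cxcl12* at 197 FPKM, the highest member in these cells. *Ccl8* was at 0.0795 FPKM or less in MEFs.

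A further class of CC ligands, which attract monocytes and activated T cells, was split. *Ccl3* measured 1.68 FPKM in wild-type against 12.3 FPKM in knockout MEFs (2.80 on the log2 scale). *Ccl4* had 1.31 and 7.85 FPKM (2.50). *Ccl5* had 1.31 and 2.84 FPKM (1.06). The other ligands of this class were not called. *Ccl6* had 1.67 and 1.48 FPKM and *Ccl9* had 4.99 and 6.48 FPKM, with changes of -0.17 and 0.37.

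The neutrophil attractants, which carry the ELR motif before their first cysteines and act on *Cxcr2*, had the largest changes, from wild-type values near 0. *Cxcl1* measured 0.383 FPKM in wild-type against 5.77 FPKM in knockout MEFs, a log2 change of 3.60. *Cxcl2* had 0.0425 and 3.67 FPKM, a change of 4.73. Both passed the filter only through the knockout value, so their calls follow in part from the filter. *Cxcl5*, at 0.0756 and 1.51 FPKM, and *Cxcl3*, listed at 0 in wild type and at 0.456 FPKM in the knockout, stayed under the filter but were placed on the same side. *Cxcl15* was at 0.0209 FPKM or less.

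*Cxcl10*, an interferon-inducible ligand of *Cxcr3*, measured 2.67 FPKM in wild-type against 6.26 FPKM in knockout MEFs (1.20 on the log2 scale). Its neighbors *Cxcl9* and *Cxcl11*, which share that receptor and are known to be induced by interferon gamma, were at 0.209 FPKM or less. *Cxcl10* overlaps *Art3* on the other strand, but *Art3* had 0.0729 FPKM or less in MEFs. *Ccl20*, the ligand of *Ccr6*, had 2.48 and 7.96 FPKM (1.65), and MEFs were the one tissue of the 7 in which it passed the filter.

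When a value of at least 1 FPKM was required in both genotypes, a rule chosen after the values had been seen, 7 of 19 members were higher in knockout MEFs, against 0.219% of 11410 genes, and 0 were lower, against 0.237%. *Cxcl1* and *Cxcl2* were the calls lost. With a pseudocount of 1, *Ccl5* and *Cxcl10* had changes of 0.73 and 0.98 and were not called, so the MEF calls that depended on neither of these settings were those of *Ccl2*, *Ccl3*, *Ccl4*, *Ccl7* and *Ccl20*.

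**Figure D3:**
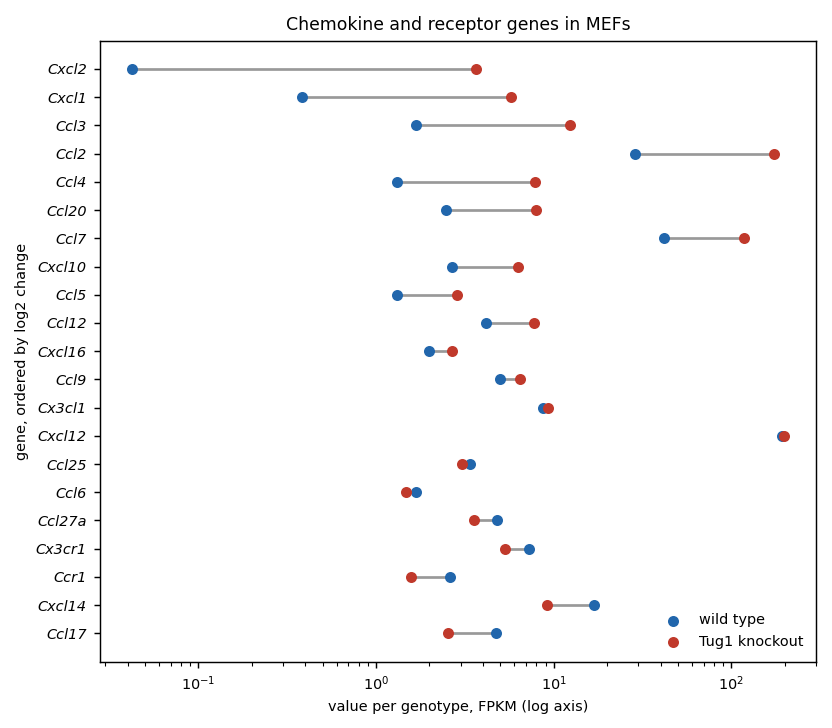
FPKM (log axis) in wild-type (blue) and *Tug1* knockout (red) MEFs of the 21 genes that passed the filter there, ordered by their log2 change, with 1 combined value per genotype. *Cxcl2* and *Cxcl1* have the longest lines from the lowest wild-type values, *Ccl2* and *Ccl7* move at high levels, and *Cxcl12* has its points on top of each other near 200.

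Members on the lower side in knockout MEFs were fewer and changed less. *Cxcl14*, a ligand made by fibroblasts and epithelium in resting tissue, measured 16.8 FPKM in wild-type against 9.22 FPKM in knockout MEFs, a log2 change of -0.86. *Ccl17*, a ligand of *Ccr4*, had 4.72 and 2.54 FPKM, a change of -0.87. The receptors *Ccr1* and *Cx3cr1* were on this side too: *Ccr1* had 2.60 and 1.57 FPKM (-0.69) and *Cx3cr1* 7.27 and 5.31 FPKM (-0.44). Summed over the class, the 38 ligands went from 326 to 584 FPKM and the 18 receptors from 11.2 to 7.62 FPKM.

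Receptors of this kind mark leukocytes, and macrophage markers were present in the MEF samples. Of 9 macrophage genes found in the table, 8 passed the filter in MEFs and 0 were called, with a median log2 change of -0.46, and their summed level was 139 FPKM in wild-type and 106 FPKM in knockout MEFs. *C1qa* had 37.3 and 26.7 FPKM, *Csf1r* 9.62 and 7.53 FPKM, and *Cd14*, a co-receptor for lipopolysaccharide, 2.92 and 5.56 FPKM. *Emr1*, another of these genes, was also on the higher side at 4.99 and 7.08 FPKM, so the markers differed in direction. *C1qb* (37.4 and 27.6 FPKM) and *C1qc* (29.2 and 19.5 FPKM) weighed on the sum beside *C1qa*. Of the markers of neutrophils, T cells, B cells and NK cells, 0 passed in MEFs, and *Ngp* and *Ltf* of neutrophils were listed at 0. The 6 fibroblast markers, whose sum was 3977 and 3568 FPKM, held *Col1a1* at 1754 and 1632 FPKM. The part of macrophages in the MEF values was not tested, and in bulk RNA fewer cells of a type and less RNA per cell cannot be told apart.

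Chemokine genes of a class lie side by side in the genome, and in MEFs the calls came from 4 such groups and 1 gene apart from them. On chromosome 11 of GRCm38, *Ccl2* (82035571 to 82037453), *Ccl7*, *Ccl11*, *Ccl12* and *Ccl8* (ending at 82116799) form 1 group with *Ccl1*, which lies beyond them (ending at 82305690) and was listed at 0 in MEFs. In it *Ccl2* and *Ccl7* were called and *Ccl12* was on the higher side, while *Ccl11*, between them, measured 0.281 FPKM in wild-type against 0.177 FPKM in knockout MEFs. The second group on that chromosome runs from *Ccl5* (starting at 83525778) through *Ccl9*, *Ccl6* and *Ccl3* to *Ccl4* (ending at 83664683), in which *Ccl5*, *Ccl3* and *Ccl4* were called and *Ccl9* and *Ccl6*, which lie between them, were not. On chromosome 5, *Cxcl5*, *Cxcl3*, *Cxcl15*, *Cxcl1* and *Cxcl2* lie between 90759360 and 90905938, and *Cxcl9*, *Cxcl10* and *Cxcl11* between 92321347 and 92365485. *Ccl20* stands alone on chromosome 1 (83116766 to 83119167). Genes that were higher and genes that were not lay interspersed within these groups.

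The promoters of several of these ligands hold the 10-base NF-κB consensus. RefSeq promoters on GRCm38.p6, 250 bases before to 50 bases after the start, were found for 42 of the 56 members, and the consensus was searched on both strands. It occurred in 11 of these 42 members and in 8.46% of all 32851 promoters of that length (9.55% of the 27025 genes they belong to). Among the members called higher in MEFs, *Ccl3*, *Ccl20*, *Cxcl1*, *Cxcl2* and *Cxcl10* had a promoter in the set, and 4 of these 5 held a match. Of the other members that passed in MEFs, 3 of 11 did (*Ccl9*, *Ccl27a* and *Ccr1*), and of those under the filter 4 of 26, among them *Cxcl3*. *Cxcl1* and *Cxcl2* passed the filter only through the knockout value and hold the same match. The 4 genes are thus not separate observations, and no conclusion is drawn from these shares. *Ccl2*, *Ccl4*, *Ccl5* and *Ccl7* were not among the promoters searched. A match is a description of the sequence and not a measured binding site. Stretches of 120 bases are shown for the *Cxcl1*, *Cxcl2* and *Cxcl3* promoters, which share their match letter for letter, and for *Ccl20* and *Cxcl10*, written 5′ to 3′ on the strand of the gene with the matches, merged where those of both strands overlap, in capitals:

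Cxcl1: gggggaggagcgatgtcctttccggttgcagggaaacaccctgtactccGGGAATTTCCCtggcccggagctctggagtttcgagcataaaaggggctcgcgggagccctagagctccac
Cxcl2: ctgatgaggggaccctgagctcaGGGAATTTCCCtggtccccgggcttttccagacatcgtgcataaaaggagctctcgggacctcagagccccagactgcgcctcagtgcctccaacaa
Cxcl3: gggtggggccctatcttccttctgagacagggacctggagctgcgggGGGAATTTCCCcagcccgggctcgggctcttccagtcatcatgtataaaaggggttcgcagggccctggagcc
Ccl20: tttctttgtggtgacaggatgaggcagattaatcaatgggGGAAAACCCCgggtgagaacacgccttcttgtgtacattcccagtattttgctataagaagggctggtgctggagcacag
Cxcl10: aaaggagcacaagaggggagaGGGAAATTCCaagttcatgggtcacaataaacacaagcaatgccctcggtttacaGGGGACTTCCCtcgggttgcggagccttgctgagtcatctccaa

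The stretches end 1 base before the annotated start, except that of *Cxcl10*, which begins 180 bases before it. They lie at chr5:90891125-90891244 (*Cxcl1*, plus strand), chr5:90903779-90903898 (*Cxcl2*, plus), chr5:90785981-90786100 (*Cxcl3*, plus), chr1:83116646-83116765 (*Ccl20*, plus) and chr5:92348950-92349069 (*Cxcl10*, minus). The match begins 71 bases before the start in *Cxcl1*, 73 in *Cxcl3*, 97 in *Cxcl2* and 80 in *Ccl20*, and *Cxcl10* has matches 159 and 104 bases before its start. In knockout MEFs the 4 of these genes that passed the filter had 3.67 FPKM (*Cxcl2*) to 7.96 FPKM (*Ccl20*), against 0.0425 to 2.67 FPKM in wild type.

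A list of chemokine inducers, which also holds inhibitors and targets of NF-κB such as *Nfkbia*, was partly higher in knockout MEFs. Of its 19 genes, 15 passed the filter and 4 were called higher and 0 lower, against 0.319% and 0.328% of all genes that passed. The median log2 change of the 15 was 0.61, against -0.00101 over all genes that passed. The cytokines *Il1b* (0.247 and 5.36 FPKM), *Tnf* (0.242 and 3.53 FPKM) and *Il1a* (0.327 and 2.75 FPKM) were called, with changes of 3.98, 3.41 and 2.74, all from wild-type values under 1 FPKM. They passed the filter only through the knockout value, as did *Irf7* (0.983 and 1.27 FPKM), which was not called. The calls of these cytokines and the median of 0.61 over the list thus follow in part from the filter. With at least 1 FPKM required in both genotypes, 1 of 11 genes of the list was called higher, against 0.219% of all genes. That gene was *Nfkbia*, an inhibitor of NF-κB and one of its targets, at 10.9 and 31.5 FPKM, a change of 1.52. None of the cytokines of the list was called under this rule. *Relb* (4.80 and 9.50 FPKM), *Tnfaip3* (5.54 and 9.68 FPKM) and *Nfkb2* (15.4 and 24.4 FPKM), also targets of that factor, had changes of 0.97, 0.79 and 0.66, short of the limit. *Rela* (22.0 and 25.6 FPKM) and *Fos* (2.97 and 2.65 FPKM) had changes of 0.21 and -0.16. Outside MEFs *Tnf* passed the filter only in spleen, *Il1a* only in testes, spleen and liver, and *Il1b* only in these and heart. In none of these was any of the cytokines called higher, and *Il1b* had log2 changes of -1.14 in heart and -1.11 in liver. *Tnfaip3* was called higher in liver, at 1.02 and 2.31 FPKM (1.11).

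**Figure D4:**
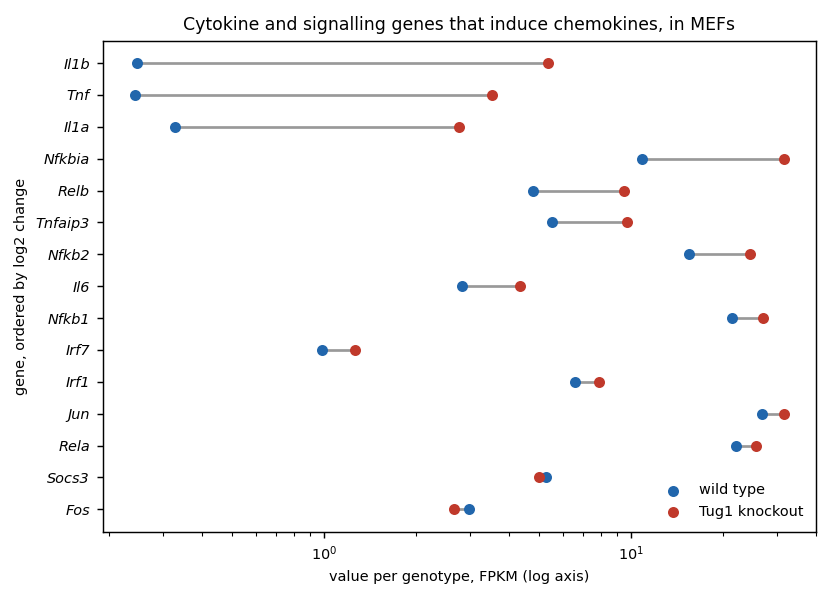
FPKM (log axis) in wild-type (blue) and *Tug1* knockout (red) MEFs of the 15 genes that passed the filter from the list of chemokine inducers, ordered by their log2 change. The list also holds inhibitors and targets of NF-κB, and each genotype has 1 combined value. *Il1b*, *Tnf* and *Il1a* lie below 1 in wild type and between 2.75 and 5.36 in the knockout, and *Fos* and *Socs3* at the bottom are slightly lower.

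Signaling genes downstream of the receptors were close to level. Of 24 genes found for G proteins, receptor kinases, arrestins and effectors, between 18 (prostate and eyes) and 24 (spleen) passed the filter. In each of the 7 tissues 0 were called in either direction. Over all genes, 0.221% (heart) to 1.67% (spleen) were called higher and 0.161% (eyes) to 0.581% (liver) lower, so 0 calls among so few genes are near those shares. The median change of those that passed lay between -0.05 in spleen and 0.07 in liver. Under the filter in liver, *Adrbk2* and *Pik3r5* had changes of 1.05 and 1.07. In MEFs *Gnai2*, the inhibitory G protein alpha subunit most used by these receptors, had 229 and 216 FPKM.

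Outside MEFs, the calls fell on few ligands. *Ccl8*, a ligand made by tissue macrophages, measured 5.88 FPKM in wild-type against 12.1 FPKM in knockout testes, a log2 change of 1.03, and 1.36 and 3.10 FPKM in eyes, a change of 1.13. In prostate it had 3.74 and 5.07 FPKM, in spleen 1.89 and 2.31 FPKM and in heart 6.14 and 5.99 FPKM. It was thus higher in the knockout in 4 of the 5 tissues in which it passed, past 2-fold in 2, and level in heart. With a pseudocount of 1 its change was 0.93 in testes and 0.80 in eyes, and neither was called.

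*Cxcl13* was called in prostate and liver. It measured 1.88 FPKM in wild-type against 4.09 FPKM in knockout prostate, a log2 change of 1.08, and 1.56 and 6.29 FPKM in liver, a change of 1.95. In heart it had 2.70 and 4.34 FPKM (0.67). In spleen, where it is made by follicular stroma and was far more abundant, it had 157 and 112 FPKM, a change of -0.49. The direction in spleen was therefore opposite to that in the 3 other tissues in which it passed. With a pseudocount of 1 the prostate change was 0.82 and not called, while the liver change stayed past 2-fold.

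*Ccl19* measured 0.756 FPKM in wild-type against 2.01 FPKM in knockout liver, a 2.47-fold difference whose log2 change of 0.78 was short of the limit with a pseudocount of 1. *Ccl21a* was on the same side in liver, at 0.887 and 1.63 FPKM (0.81), as was *Cxcr4* at 0.841 and 1.73 FPKM (0.96). These 3 genes passed the filter in liver only through the knockout value, so their side follows in part from the filter. Markers of lymphocytes were low there, with summed B cell markers at 3.83 and 3.53 FPKM and T cell markers at 2.25 and 2.54 FPKM. Summed macrophage markers in liver were 200 and 278 FPKM, with 9 of 9 passing, 0 called and a median change of 0.49. *Ccl9*, *Ccl6*, *Cxcl9* and *Cxcl1* were also on the higher side in liver, at 63.9 and 82.5, 8.04 and 12.0, 4.38 and 7.20, and 6.19 and 8.28 FPKM, with changes of 0.37, 0.57, 0.70 and 0.41, none of them called. The part of macrophages in these values was not tested.

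**Figure D5:**
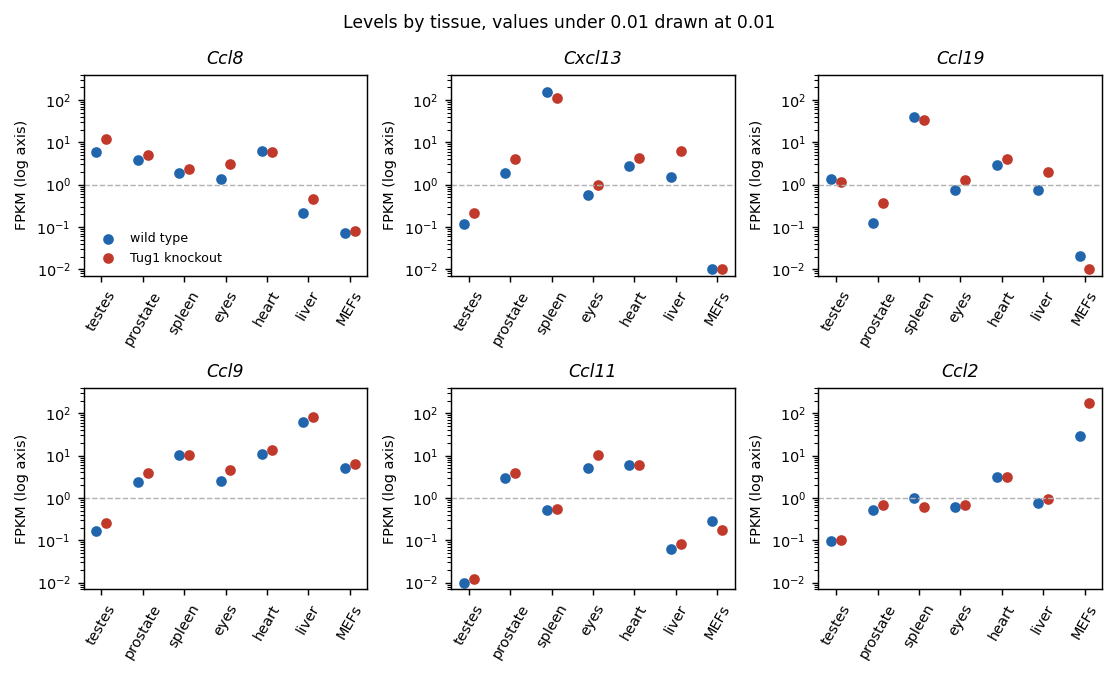
FPKM (log axis, values under 0.01 drawn at 0.01) of *Ccl8*, *Cxcl13*, *Ccl19*, *Ccl9*, *Ccl11* and *Ccl2* in wild-type (blue) and *Tug1* knockout (red) groups of each tissue, 1 combined value per group, with a dashed line at 1. *Cxcl13* is higher in knockout prostate, heart and liver and lower in knockout spleen, *Ccl9* is highest in liver at 63.9 and 82.5, and *Ccl2* stands apart in MEFs at 28.8 and 173.

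In eyes, a set of ligands lay at or just short of the limit. Besides *Ccl8*, the eosinophil attractant *Ccl11* measured 5.23 FPKM in wild-type against 10.3 FPKM in knockout eyes (0.97 on the log2 scale). *Ccl6* had 4.26 and 8.40 FPKM (0.96). *Ccl9* had 2.49 and 4.62 FPKM (0.86). In contrast, *Cxcl10*, which passed there, was on the lower side at 1.54 and 0.997 FPKM (-0.58), and *Cx3cl1* and *Cxcl12* had changes of -0.10 and 0.24. Markers of fat and of blood cells were called higher too, where the share over all genes that passed was 0.539%. Of adipocyte genes that passed, 4 of 4 were called higher (summed level of the list 108 and 395 FPKM). The same held for 4 of 4 red cell genes (158 and 492 FPKM) and 3 of 3 neutrophil genes (3.28 and 8.99 FPKM). Of the latter, *S100a8* (0.628 and 2.55 FPKM) and *Ltf* (0.872 and 1.93 FPKM) passed only through the knockout value, so their calls follow in part from the filter. *Camp* of neutrophils, under the filter, had 0.324 and 0.230 FPKM. Skeletal muscle genes had a median change of 0.84, with 0 of 6 called, and macrophage genes one of 0.43, with 1 of 9 called (*Cd163*, 1.07 and 2.39 FPKM). *Ly6g* of neutrophils was listed at 0 in both genotypes. The part of these tissues and cells in the ligand values was not tested.

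In prostate 13 of the 16 members that passed were on the higher side, and their median change was 0.31 against -0.04 over all 12166 genes that passed. After *Cxcl13* the largest was that of *Ccl12*, at 1.17 and 2.31 FPKM (0.93), followed by *Ccl9*, at 2.43 and 3.90 FPKM (0.66). The abundant ligands *Cxcl12*, *Cxcl14* and *Ccl21a* had 18.2 and 22.7, 10.8 and 13.4, and 11.3 and 12.3 FPKM, with changes of 0.32, 0.30 and 0.12. Markers of other cell types differed as well. Of adipocyte markers, 4 of 4 that passed were called higher (66.3 and 253 FPKM summed), and of macrophage markers 2 of 9, *Cd163* (1.08 and 2.82 FPKM) and *Mrc1* (2.57 and 6.09 FPKM), with a sum of 70.8 and 103 FPKM. Genes of the seminal vesicle, a neighboring gland, went from a sum of 9703 to 19483 FPKM, with 2 of 6 called higher. These were *Svs5* (4182.5 and 11507 FPKM) and *Pate4* (951 and 2925 FPKM), which carried the rise of the sum. *Svs2* and *Svs4* changed by 0.14 and 0.42, while *Svs3a* (5.41 and 3.44 FPKM) and *Svs6* (29.0 and 19.6 FPKM) were on the lower side. The part of these tissues and cells in the chemokine values was not tested.

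In heart, receptors lay on the lower side, with 0 called. The 5 that passed were these: *Ccr7* had 2.85 and 1.48 FPKM (-0.91), *Cxcr5* 1.82 and 1.03 FPKM (-0.76), *Ccr2* 3.06 and 2.13 FPKM (-0.51), *Cx3cr1* 1.71 and 1.23 FPKM (-0.44) and *Cxcr4* 11.5 and 9.90 FPKM (-0.21). Their median was -0.51, while the 20 ligands that passed had a median of 0.00495 and 11 of them lay on the higher side.

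Markers of several cell types differed in heart as well. Of 6 B cell markers, 6 passed and 4 were called lower, where the share over all genes that passed was 0.481%. Their median was -1.09 and their sum 35.1 and 15.9 FPKM. The 7 T cell markers had sums of 5.87 and 4.17 FPKM with 1 passing and 0 called, and the 9 macrophage markers had a median of 0.34 with 0 called. *Cxcr5* overlaps *Bcl9l*, which had 7.15 and 7.68 FPKM in heart. Adipocyte genes were also lower, 2 of 4, and skeletal muscle genes 4 of 6, with *Tnnt3* at 30.3 and 0.786 FPKM. The part of lymphocytes and of these other cells in the receptor values was not tested.

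Spleen, with 31 members measured, had no call, and its changes lay between -0.49 (*Cxcl13*) and 0.31 (*Cxcr3*, 8.50 and 10.5 FPKM). Of these, 22 were on the lower side, with a median of -0.11 against -0.02 over all 12618 genes that passed. *Ccl5*, carried by T cells and NK cells, had 151 and 176 FPKM (0.22), and *Cxcr4* 115 and 137 FPKM (0.25). *Ccl6* had 47.8 and 36.4 FPKM (-0.39), *Ccl19* 40.6 and 33.3 FPKM (-0.28), *Ccr7* 57.6 and 48.3 FPKM (-0.25) and *Ccl21a* 123 and 111 FPKM (-0.14). Lymphoid stroma markers, 4 of 4 passing, had a median of -0.15, and B cell markers one of -0.28 with sums of 1678 and 1348 FPKM. *Cxcr5* had 75.3 and 69.7 FPKM (-0.11). The receptors with the highest spleen level after *Cxcr4*, *Cxcr5* and *Ccr7*, which were *Ccr6* (21.4 and 18.5 FPKM), *Ccr3* (16.6 and 13.8 FPKM) and *Ccr2* (12.5 and 11.6 FPKM), had changes of -0.21, -0.26 and -0.10.

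Other genes of the spleen differed far more. Of 7 pancreatic acinar genes found, 6 passed and 6 were called higher in the knockout (18.5 and 2181 FPKM summed), 6 of 8 neutrophil genes were called higher (729 and 1521 FPKM), and 4 of 6 red cell precursor genes (7488 and 14045 FPKM). Over all genes that passed in spleen, 1.67% were called higher. *Cxcr2*, the chemokine receptor of neutrophils, had 7.72 and 7.25 FPKM, a change of -0.09. The part of these tissues and cells in the chemokine values was not tested.

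Among the chemokines and receptors outside the name rule, 2 of the 8 genes that passed in spleen were called higher, against 1.67% of all genes. The platelet chemokine *Ppbp* measured 93.4 FPKM in wild-type against 193 FPKM in knockout spleen (1.05 on the log2 scale), and *Darc*, which red cells and venules carry, 2.64 and 6.08 FPKM (1.17). *Pf4*, the other platelet chemokine, had 60.7 and 118 FPKM (0.95). In eyes, where 0.539% of all genes that passed were called higher, *Ppbp* had 0.282 and 1.75 FPKM (2.28) and *Pf4* 4.02 and 8.57 FPKM (1.07). Both were called, *Ppbp* only through its knockout value, while *Darc*, at 24.5 and 20.3 FPKM, was not. The platelet markers *Gp1bb* (1.79 and 1.30 FPKM) and *Itga2b* (2.51 and 2.43 FPKM) were on the lower side in eyes. *Gp9*, under the filter there, had 0.0484 and 0.520 FPKM. In spleen these markers were on the higher side, *Gp9* at 9.05 and 16.1 FPKM (0.82), *Gp1bb* at 1.81 and 3.28 FPKM (0.82) and *Itga2b* at 11.4 and 19.4 FPKM (0.76). The part of platelets in the platelet chemokine values was not tested. In the other 5 tissues 0 genes of this list were called. *Ackr3*, the scavenger receptor of *Cxcl12*, had 39.9 and 36.2 FPKM in heart, where it was highest, and *Mif* had 366 and 383 FPKM in MEFs.

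In testes, *Ccl8* apart, the larger changes were those of *Ccl17*, at 2.70 and 1.43 FPKM (-0.87), *Cx3cl1*, at 0.894 and 1.40 FPKM (0.60), and *Cxcr4*, at 1.94 and 2.63 FPKM (0.42). The receptors *Ccr6* (3.61 and 3.33 FPKM), *Cxcr5* (1.74 and 1.47 FPKM) and *Ccr7* (1.62 and 1.38 FPKM) changed by -0.12, -0.22 and -0.21. The median over the 17 members that passed was -0.07, and that over all 15143 genes -0.06. Macrophage markers had a median of 0.24 with 0 of 7 called, and *Cd163* had 0.360 and 0.876 FPKM. Leydig and Sertoli cell markers, 7 of 7 passing and 0 called, had a median of 0.39 and sums of 919 and 1328 FPKM, and germ cell markers, 6 of 6 passing and 0 called, a median of -0.19 and sums of 39315 and 33717 FPKM. The part of these cell types in the testis values was not tested.

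Of the 32 members that passed in at least 2 tissues, 9 were on the same side in each, 4 higher and 5 lower. The same count was not made over all genes, and members that passed in few tissues fall on the same side more easily. The count is therefore not a result about the members, and the sides below are given as values only. *Cx3cr1*, *Ccr7* and *Cxcr5* passed in 3 or 4 tissues each and were on the lower side in all of them, although with changes as small as -0.01 (*Cx3cr1* in eyes). *Cx3cr1* overlaps *Wdr48* on the other strand and *Gorasp1* on the same strand, at 9.55 and 12.3 FPKM in wild-type heart, so part of its value may come from such genes. *Ccl17* was on the lower side in testes and MEFs (-0.87 in each), and *Ccr6* in testes and spleen. *Ccl12*, which passed in prostate, heart and MEFs, was on the higher side in each, between 0.57 and 0.93, as was *Ccl11* in 3 tissues, between 0.00128 and 0.97. *Ccl5* and *Ccl9* were on the higher side in 5 of 6 tissues each. *Ccl3* and *Ccl4*, called in MEFs, had changes of -0.25 and -0.19 in spleen, the other tissue in which they passed. *Ccl2* and *Ccl7*, which passed in heart as well, changed there by 0.01 and 0.15, from 3.17 to 3.19 and from 2.56 to 2.85 FPKM. *Cxcl1* was highest in wild-type liver, at 6.19 FPKM, a level that knockout MEFs approached.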

How the data were processed

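PolyA RNA libraries (TruSeq RNA Sample Preparation Kit v2, not stranded) of 42 samples were grouped by the genotype and tissue in their labels. Per the labels, the authors processed the reads with CASAVA 1.8.2, TopHat2 and Cuffdiff on mm10. The paper's methods describe a route of their own for the authors' calls. The deposited table gives 1 value per genotype and tissue. The authors combined the samples of a group, and the header names no unit, so FPKM is read from the layout of the table. Columns with the authors' own comparisons (fold change, test statistic, p-value, q-value and a significance mark) were not used. The values of 2 groups (brain) were not used here. With no counts or sample values, depth is unknown and no test, spread or interval was computed.

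From the values, log2((KO + 0.1)/(WT + 0.1)) was computed, with a filter of a mean of at least 1 and a limit of 2-fold, for the 26653 genes of each tissue. Genes named are those past the limit, the 3 highest members of each tissue and a set list of ligands and receptors, and a few others chosen after their values were seen (the members next to the limit, those under the filter in MEFs, and overlapping genes). 1 gene that the name rule finds and 1 gene of the inducer list are not reported here and are left out of the counts of members and of that list. Members and gene lists were chosen with earlier results of these data known. Gene positions came from GENCODE vM21 (GRCm38), matched by gene identifier for the 56 members, and promoters from RefSeq (GRCm38.p6). Alternatives were pseudocounts of 1 and 0.01, no filter, a mean of at least 5, a limit of 1.5-fold, centering on the median of all genes, values divided by the group's sum, and at least 1 in both genotypes. Python 3.11.15, numpy 2.4.6, pandas 2.3.3 and matplotlib 3.10.9 were used.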

Additional observations from a re-analysis of the deposited data

How the results depend on the processing

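No paired analysis was possible because the deposited table holds 1 combined value per genotype and tissue, which is also why leaving out replicates was not run. The calls in testes, prostate and eyes were close to the limit, with log2 changes of 1.03, 1.08 and 1.13. Those in liver were further from it, at 1.30 for *Ccl19* and 1.95 for *Cxcl13*. Of the members past 2-fold, a pseudocount of 1 left 0 in testes, prostate and eyes and 1 in liver. A mean of at least 5 left 0 in liver, eyes and prostate and 4 in MEFs. No filter gave 4 in testes, 3 in prostate, 2 in eyes and 3 in heart, where 0 were called. A limit of 1.5-fold gave 3 in testes, 3 in prostate, 5 in liver, 5 in eyes and 3 in heart. Each count joins both directions, in testes 2 higher and 1 lower at this limit. The share over all genes was not computed without the filter or at 1.5-fold, so these counts show only how the calls depend on the settings. A value of at least 1 in both genotypes, chosen after the values had been seen, left 1 in liver, and centering changed no count by more than 1.5 times. The median change of the members, 0.31 in prostate, 0.39 in liver and 0.42 in MEFs, was 0.12, 0.16 and 0 with no filter, and in MEFs 0.62 with a mean of at least 5 and 0.32 with a pseudocount of 1. In the other settings run these medians moved by less than 0.1. Of the 141 pairs of member and tissue that passed, 6 moved across the limit with a pseudocount of 1, and with 0.01 1 did, *Cxcr4* in liver at 1.03. Precision at low values is unknown, since the depth is.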

Other observations

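Some members lay under the filter but had a value of at least 0.4 FPKM in one genotype and a change of 2-fold or more, and they are given as values only. *Cxcl17*, a ligand of mucosal epithelium, measured 0.124 FPKM in wild-type against 1.64 FPKM in knockout eyes. It overlaps *4732471J01Rik* on the other strand, which had 0.704 and 1.07 FPKM there. *Ccl12* had 0.286 and 0.758 FPKM in testes, next to *Ccl8* on chromosome 11, which was called there. *Xcl1*, a ligand made by NK cells and activated T cells, had 0.144 and 0.428 FPKM in liver. *Ccr6* had 0.50 and 0.170 FPKM in heart, where 4 of 6 B cell markers were called lower, against 0.481% of all genes that passed. Whether these go together was not tested. *Cxcl3* and *Cxcl5* in MEFs complete this set. Each of these changes rests on values under 2 FPKM, and how precisely such values were measured is not known.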
